A study of Saccharomyces cerevisiae with 3 samples.

Results

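The 10 genes described here carry sulfate into the cell, reduce it, build it into methionine, or import methionine. They were found by their symbols in the probe annotation of the array, and all 10 were found among 5656 genes that had a probe set annotated to them alone. Each was read by 1 probe set of the plain type, designed without probes shared with other genes. RNA came from the baker's yeast reference strain S288c, kept for 5 h with the solvent dimethylformamide (DMF) alone, with 7.5 µM tomatidine in DMF, or with 15 µM tomatidine in DMF. Tomatidine is a steroidal alkaloid of tomato, the sugar-free core of tomatine. Strain, exposure time and solvent were common to the 3 conditions, while the growth medium, its sulfur source, the cell density and any pooling of cultures are not stated by the labels. Each condition had 1 array, so no test and no p-value was possible, and every difference describes these arrays only; their number limits the precision.

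Yeast makes its sulfur amino acids from inorganic sulfate. Sulfate is imported by the permeases Sul1 and Sul2, activated with ATP in consecutive steps by Met3 and Met14, and reduced to sulfite by Met16 and to sulfide by sulfite reductase, whose subunits are Met5 and Met10. Met17 joins sulfide to O-acetylhomoserine to give homocysteine, and Met6 methylates homocysteine to methionine. The pathway is switched on by the activator Met4, which reaches DNA through Cbf1, Met31 and Met32, and is held down by the ubiquitin ligase subunit Met30 when methionine or cysteine is plentiful. Cells given methionine instead take it up through Mup1, the high affinity permease, and Mup3, a low affinity one.

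Median deposited signals were 28.5 for the control, 30.1 for 7.5 µM and 30.4 for 15 µM. Signals below are scaled to the array median, and a scaled signal of 18.2, the 40th percentile of all arrays together, served as the floor under which signals were given no order. Genes that exceeded the floor on any array were compared, 4724 of the 5656, among them 9 of the 10 sulfur genes. RNA integrity, read as the 3' over 5' signal of actin (ACT1), stood at 1.63 in the control, 1.80 at 7.5 µM and 1.47 at 15 µM. The same ratio of SPT15, the TATA-binding protein gene, stood at 3.30 in the control, 2.35 at 7.5 µM and 2.48 at 15 µM, with the control apart from both doses; its part in the ratios below was not tested. The labelled strain S288c is of mating type alpha. All 4 alpha-specific marker genes (MF(ALPHA)1, MF(ALPHA)2, STE3 and SAG1) had scaled signals between 265 and 1937 over the arrays. They were not level: at 15 µM SAG1 was 3.80-fold, MF(ALPHA)2 2.75-fold, MF(ALPHA)1 1.46-fold and STE3 1.41-fold lower than in solvent. All 4 a-specific markers (MFA1, MFA2, STE2 and BAR1) stayed under the floor on every array. Hybridisation spikes of bacterial and phage origin, read by 8 probe sets, had geometric mean scaled signals of 219.5 in the control, 136.5 at 7.5 µM and 123.0 at 15 µM, so that the control exceeded the lower dose 1.61-fold and the higher dose 1.78-fold. All ratios that follow take the median probe set, and not these spikes, as their base.

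The 7 genes of the enzymes that turn sulfate into methionine had more signal with tomatidine at both doses than in solvent, by between 1.16-fold and 2.12-fold in the 6 of them measured above the floor on all arrays. The methionine permease gene MUP1 had more signal as well, and the other permease gene, MUP3, had less. The sulfate permease gene SUL1 gave no usable signal. A gene was called where its signals differed at least 2-fold and the larger one exceeded the floor, a rule of size that stands in for a test. MET3 and MET14 were called higher at 7.5 µM, and MUP3 was called lower at 15 µM.

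**Figure D1:**
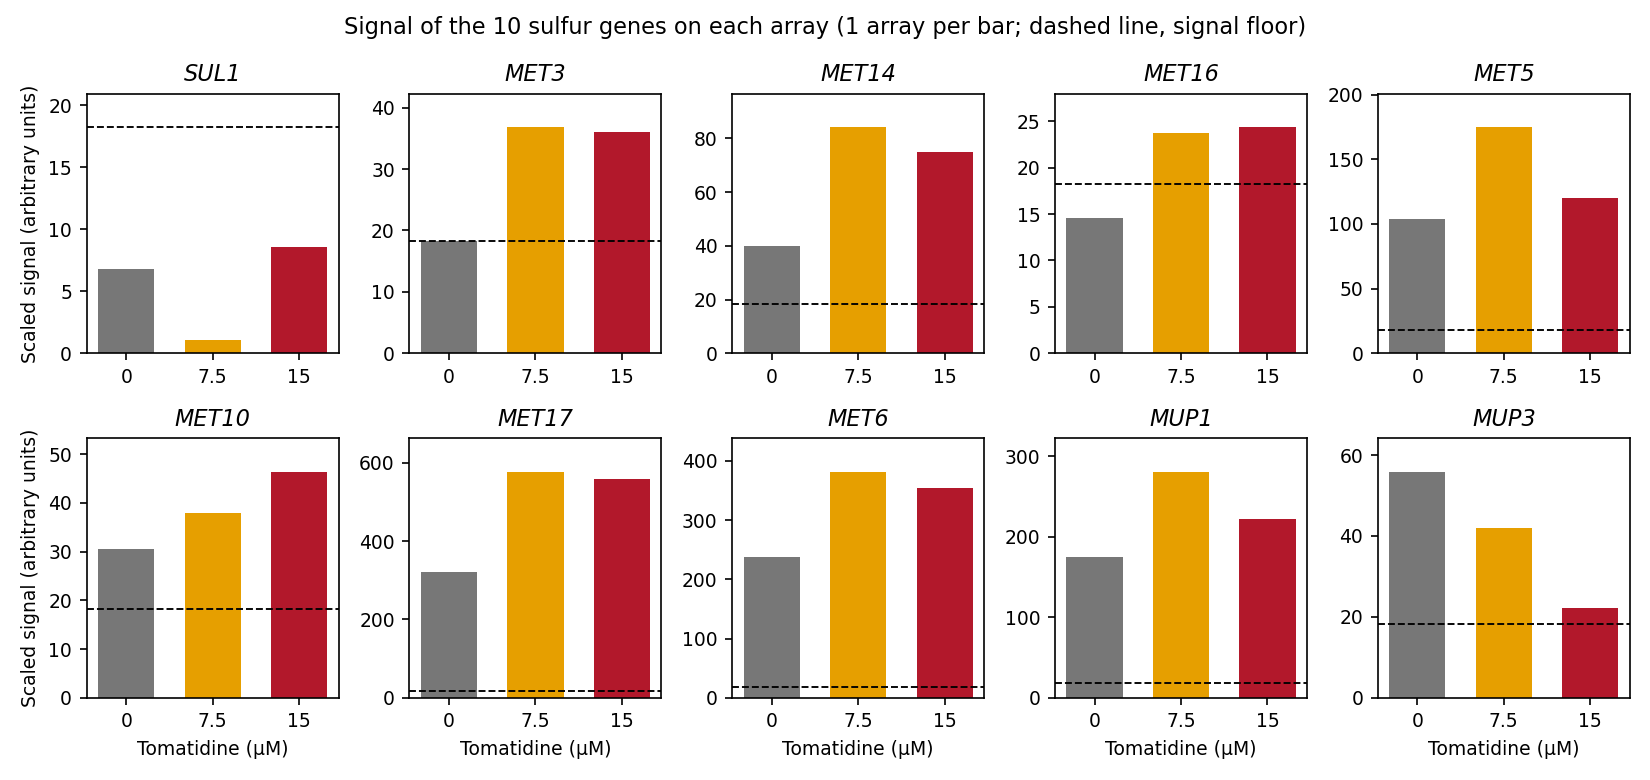
Scaled signal (vertical axis, arbitrary units, separate scale for each gene) of the 10 genes on the arrays with 0, 7.5 and 15 µM tomatidine (horizontal axis), 1 array per bar, with the floor of 18.2 as a dashed line. The bars of MET3 stand at 18.3, 36.8 and 36.1, those of MUP3 stand at 55.8, 41.9 and 22.2, and all bars of SUL1 lie under the floor.

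Sulfate uptake could be read only in part. SUL1, a high affinity sulfate permease, had scaled signals of 6.77, 1.09 and 8.57 on the control, 7.5 µM and 15 µM arrays. All of them lay under the floor, so no ratio is given for SUL1. Its partner SUL2 had 17.5, 18.3 and 19.1 on the same arrays, within a narrow span around the floor.

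Sulfate activation held both genes that were called higher. MET3, ATP sulfurylase, which makes adenylyl sulfate, had scaled signals of 18.3, 36.8 and 36.1 on the control, 7.5 µM and 15 µM arrays. Both treated arrays lay close together and above the control, which itself lay just over the floor. MET3 was 2.01-fold higher at 7.5 µM and 1.97-fold higher at 15 µM, so only the lower dose passed the 2-fold line. MET14, adenylyl sulfate kinase, the next enzyme, had 39.8, 84.1 and 75.1 on the control, 7.5 µM and 15 µM arrays. It was 2.12-fold higher at 7.5 µM and 1.89-fold higher at 15 µM. Between the doses the log2 ratios, 15 µM over 7.5 µM, were -0.03 for MET3 and -0.16 for MET14, so neither gene had a higher signal at the higher dose. With a small pseudocount in place of the floor the call of MET3 at 7.5 µM ended, at a log2 ratio of 0.98. With a floor at the 60th percentile, 45.6, MET3 was not compared. The control signal of MET14 lay under that floor, so MET14 was higher by at least 0.88 log2 units at 7.5 µM.

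No gene of the reduction steps was called, and the subunits of sulfite reductase differed in which dose was the higher one. Over all genes 2.73% were called higher and 1.14% lower at 15 µM, and 1.97% and 0.614% at 7.5 µM. Between the doses the shares were 0.72% and 0.275%, so no call among these few genes is near the background. MET16, the reductase that yields sulfite, had scaled signals of 14.6, 23.8 and 24.3 on the control, 7.5 µM and 15 µM arrays. Its control signal was under the floor, so that it entered the comparison only through the treated arrays, and it was at least 1.30-fold higher at 7.5 µM and at least 1.34-fold at 15 µM. MET5, the beta subunit of sulfite reductase, had 103.7 in solvent, 174.6 at 7.5 µM and 119.9 at 15 µM. The 7.5 µM array stood apart and the 15 µM array lay near the control, with log2 ratios of 0.75 at 7.5 µM and 0.21 at 15 µM. MET10, the alpha subunit, had 30.6, 37.9 and 46.3 on the control, 7.5 µM and 15 µM arrays. For MET10 the 15 µM array was the brightest, with log2 ratios of 0.31 at 7.5 µM and 0.60 at 15 µM. The log2 ratio of 15 µM over 7.5 µM was -0.54 for MET5 and 0.29 for MET10. With a floor at the 60th percentile, 45.6, MET10 was above the floor at 15 µM alone. There its log2 ratios of 0.02 at 15 µM and between the doses were lower bounds. The 0.00 at 7.5 µM sets floored values against each other.

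The last steps to methionine had ratios close to each other at the doses. MET17, O-acetylhomoserine sulfhydrylase, which makes homocysteine, had scaled signals of 320.5, 576.1 and 558.2 on the control, 7.5 µM and 15 µM arrays. It was 1.80-fold higher at 7.5 µM and 1.74-fold higher at 15 µM. MET6, the cobalamin-independent methionine synthase, had 238.4, 381.2 and 354.0 on the control, 7.5 µM and 15 µM arrays. It was 1.60-fold higher at 7.5 µM and 1.48-fold at 15 µM, and the log2 ratios between the doses were -0.05 for MET17 and -0.11 for MET6.

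The methionine permease genes went opposite ways. MUP1 had scaled signals of 174.4, 280.2 and 221.9 on the control, 7.5 µM and 15 µM arrays. The control array was the dimmest, and MUP1 was 1.61-fold higher at 7.5 µM and 1.27-fold at 15 µM. MUP3 had 55.8, 41.9 and 22.2 on the control, 7.5 µM and 15 µM arrays. Each higher dose had less signal, and MUP3 was 1.33-fold lower at 7.5 µM and 2.51-fold lower at 15 µM. Only 22 of the 4724 compared genes, MUP3 included, had a log2 ratio this low or lower at 15 µM. The call of MUP3 ended with the floor at the 60th percentile, 45.6, which both treated signals of MUP3 lay under. There the log2 ratio at 15 µM is set by the floor, lower by at least 0.29. The call also ended with the spikes as the scaling base, where the log2 ratio was -0.49 at 15 µM and 0.27 at 7.5 µM. Relative to the median of all compared genes under that scaling, MUP3 stood at -1.24 for 15 µM and at -0.32 for 7.5 µM.

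**Figure D2:**
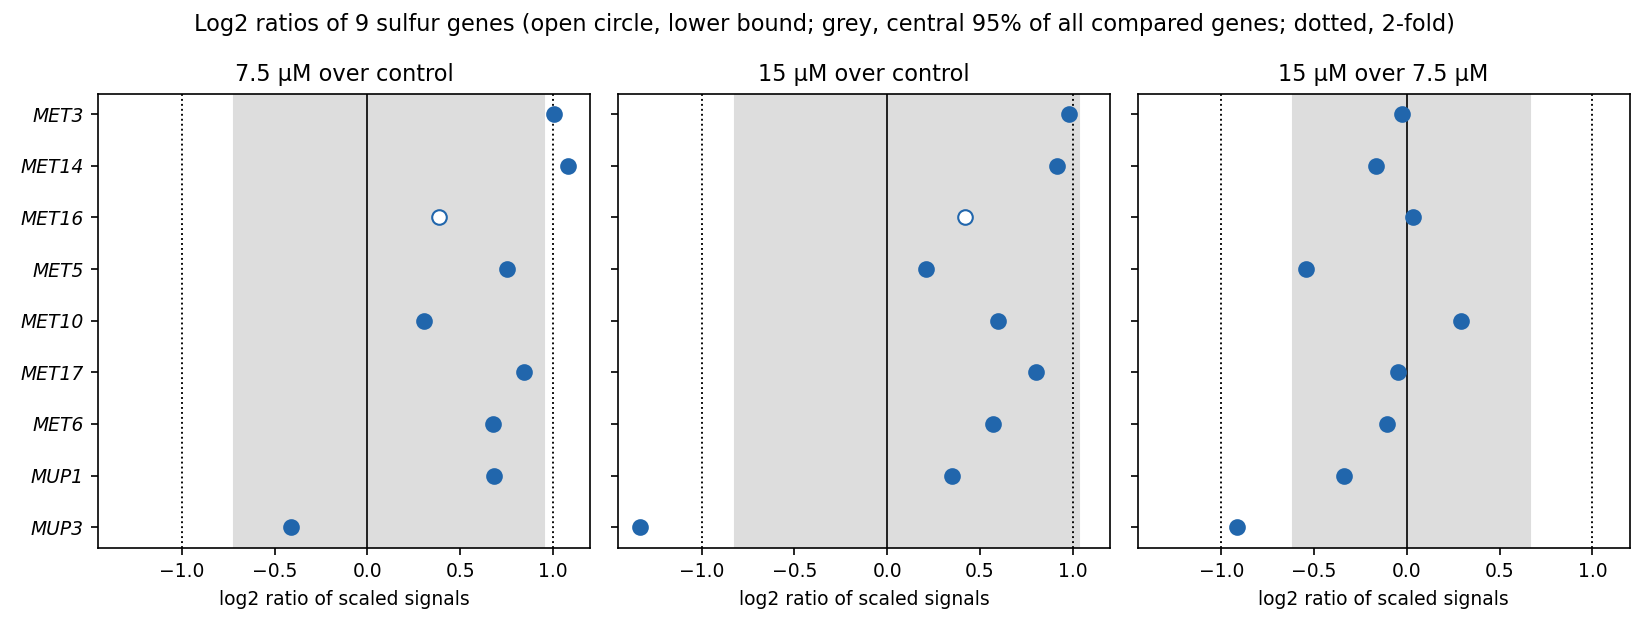
Log2 ratios of scaled signals (horizontal axis) of the 9 compared genes (rows) for 7.5 µM over control, 15 µM over control and 15 µM over 7.5 µM; filled circles are measured ratios, open circles lower bounds, the grey band holds the central 95% of all 4724 compared genes and dotted lines mark 2-fold. MET3 and MET14 lie beyond the band at 7.5 µM, MUP3 lies beyond it at 15 µM and between the doses, and the other circles lie inside.

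The sulfur genes were chosen with earlier results of these data known, so the counts below describe them and are no independent support. Counted over the 9 compared genes, 8 had a log2 ratio above 0 at 15 µM, against 46.3% of all compared genes. None was at least 2-fold higher there (2.73% of all genes) and 1, MUP3, was at least 2-fold lower (1.14%). At a 1.5-fold line 4 were higher (8.26% of all genes), namely MET3, MET14, MET10 and MET17, and MUP3 was lower (6.9%). The median log2 ratio of the 9 was 0.57 at 15 µM, against -0.03 over all compared genes, and it was 0.49 with SUL1 counted at its floored ratio of 0. MET16 could not lie below 0, since it was above the floor on the treated arrays alone, and without it 7 of 8 lay above 0 with a median of 0.58, against 46.5% of all genes above the floor on both arrays. Since 1 probe set reads each of these genes, the scatter of 173 other genes with several usable probe sets gives a scale: within a gene their log2 ratios had a pooled SD of 0.38, a figure for probe differences alone and not for differences between cultures.

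At 7.5 µM 8 of the 9 again had a log2 ratio above 0, against 44.8% of all compared genes, and 1, MUP3, lay below 0 (53.7%). MET3 and MET14, 2 of the 9, were at least 2-fold higher (1.97% of all genes) and none was at least 2-fold lower (0.614%). At the 1.5-fold line 6 were higher (8.59% of all genes), namely MET3, MET14, MET5, MET17, MET6 and MUP1, and none was lower (5.23%). The median log2 ratio was 0.68, both for the 9 and with SUL1 counted at 0, against -0.03 over all genes, where the same pooled within-gene SD was 0.34. Without MET16 7 of 8 lay above 0 with a median of 0.72, against 45.1% of all genes above the floor on both arrays. Counted from the top of the 4724 genes, MET14 ranked 65th and MET3 91st at 7.5 µM, and MET3 134th and MET14 155th at 15 µM. Both dose comparisons use the same control array, so an error of that array would appear in both.

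The comparison of 15 µM with 7.5 µM involves no control array. Of the 9 genes, 7 had a log2 ratio below 0 (49.6% of all genes) and 2, MET10 and MET16, above it (48.1%), and the median was -0.11, against 0.00 over all genes. None was 2-fold higher (0.72% of all genes) or 2-fold lower (0.275%), and at the 1.5-fold line none was higher (4.04%) and MUP3 was the 1 gene lower (3.05%), at 1.89-fold. MUP3 was the 23rd lowest of the 4724 genes in this comparison and MET5 the 198th. For the enzyme genes other than MET5 and MET10 the doses differed by at most 0.16 log2 units in size, against a pooled within-gene SD of 0.29.

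Scaling on the spikes moved the median log2 ratio of all compared genes by 0.77 at 15 µM and by 0.62 at 7.5 µM. The median of the 9 sulfur genes relative to that of all genes was 0.60 at 15 µM with median scaling and 0.61 with spike scaling. At 7.5 µM it was 0.72 with median scaling and 0.77 with spike scaling. Both scalings multiply each array by 1 factor, which taking the ratio to the median of all genes removes. Such relative values can differ only through the floor, so their closeness was fixed in advance and is no support. The same holds for the relative values of MUP3, SAM3 and SAM1.

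The genes next to these 10 in the R64 gene table were read as well. Of 20 neighbouring genes 14 were compared, and none was at least 2-fold higher or lower in any of the 3 comparisons. Over all genes the shares were 2.73% higher and 1.14% lower at 15 µM, 1.97% and 0.614% at 7.5 µM and 0.72% and 0.275% between the doses, so that few or no calls among 14 genes are near the background. The median log2 ratio of the neighbours was -0.01 at 15 µM, with 7 of 14 above 0 (46.3% of all genes). At 7.5 µM it was 0.20 with 11 of 14 above 0 (44.8%), and between the doses -0.16 with 4 of 14 above 0 (48.1%). In these last comparisons the neighbours leaned to the same side as the sulfur genes. RSC1, the neighbour of MUP1 and a subunit of a chromatin remodelling complex, had the largest ratio among them, 0.98 at 7.5 µM, and is named after its value was seen.

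The rest of sulfur metabolism was covered by 47 listed genes, of which 41 were compared. At 15 µM 14 of the 41 lay above 0 (46.3% of all genes) and 24 below (52.4%), with a median log2 ratio of -0.10. None was 2-fold higher (2.73% of all genes) and 1, SAM3, was 2-fold lower (1.14%). At 7.5 µM 22 lay above 0 (44.8% of all genes) and 19 below (53.7%), with a median of 0.00. None was 2-fold higher (1.97% of all genes) or lower (0.614%) there. Between the doses 28 of the 41 were lower at 15 µM (49.6% of all genes), and none was 2-fold higher (0.72%) or lower (0.275%). Of the 41, 6 were not above the floor on both arrays of the control comparisons. Of the other 35, 13 lay above 0 at 15 µM and 18 at 7.5 µM. Over all genes above the floor on both arrays the shares were 46.5% and 45.1%.

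**Figure D3:**
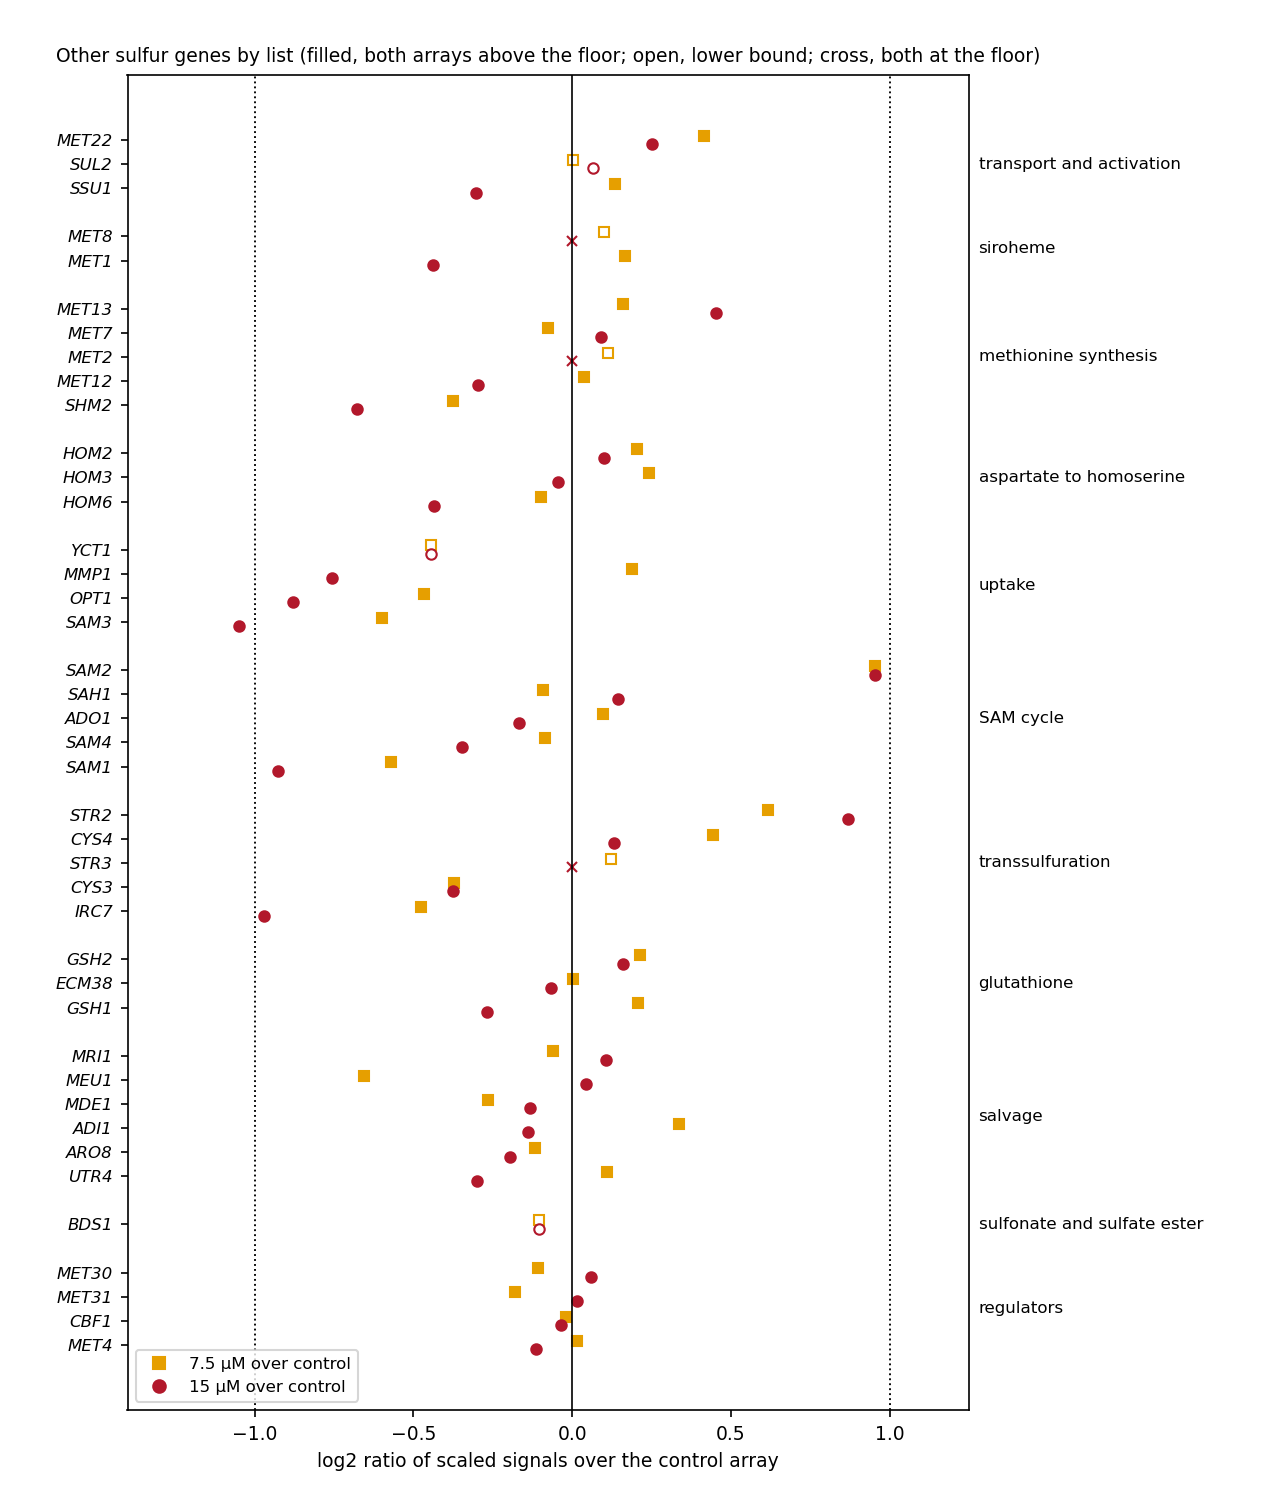
Log2 ratios of scaled signals over the control array (horizontal axis) of the 41 other compared sulfur genes (rows, grouped by list) at 7.5 µM (squares) and 15 µM (circles); open symbols are lower bounds, crosses mark genes with both arrays at the floor, and dotted lines mark 2-fold. SAM2 and STR2 lie farthest to the right and SAM3, IRC7 and SAM1 farthest to the left at 15 µM.

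Among the genes that feed the pathway with cofactors and carbon none was called. Over all genes 2.73% were called higher and 1.14% lower at 15 µM, and 1.97% and 0.614% at 7.5 µM. No call among so few genes is near these shares. Of the siroheme genes, which make the cofactor of sulfite reductase, MET1 had a log2 ratio of -0.44 at 15 µM and 0.17 at 7.5 µM, and MET8 was above the floor at 7.5 µM alone, at least 1.07-fold higher there. In methionine synthesis MET13, a methylenetetrahydrofolate reductase, was highest at 0.45 for 15 µM and 0.16 for 7.5 µM. SHM2, the cytosolic serine hydroxymethyltransferase that supplies one-carbon units, was lowest at -0.68 and -0.38 for the same doses, with scaled signals of 956.8, 737.6 and 598.9 on the control, 7.5 µM and 15 µM arrays. MET2, which makes the O-acetylhomoserine used by Met17, was above the floor only at 7.5 µM, with a scaled signal of 19.7. Of the genes from aspartate to homoserine, HOM6, homoserine dehydrogenase, had -0.44 at 15 µM and -0.10 at 7.5 µM, HOM2 had 0.10 at 15 µM and HOM3 had 0.24 at 7.5 µM. In the transport and activation list MET22, the phosphatase that clears the by-product of sulfate reduction, was highest with 0.25 at 15 µM and 0.41 at 7.5 µM, and SSU1, the sulfite exporter, was lowest at 15 µM with -0.30.

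The next list held uptake genes for organic sulfur. Of them, 3 genes were above the floor on both arrays, and all 3, SAM3, OPT1 and MMP1, had a log2 ratio below 0 at 15 µM, against 53.5% of all genes above the floor on both arrays. AGP3 stayed under the floor. SAM3, the S-adenosylmethionine permease, had scaled signals of 84.9, 56.0 and 41.0 on the control, 7.5 µM and 15 µM arrays with its plain probe set and was 2.07-fold lower at 15 µM. OPT1, an oligopeptide transporter that takes up glutathione, had 166.8, 120.6 and 90.6 on the same arrays. MMP1, the S-methylmethionine permease, had 36.9, 42.0 and 21.8, and it was 1.69-fold lower at 15 µM and had a log2 ratio of 0.19 at 7.5 µM. For OPT1, and for SAM3 with its plain probe set, the solvent array was the brightest and the 15 µM array the dimmest. For MMP1 the 15 µM array alone was low. YCT1, a cysteine transporter, was above the floor in solvent alone and at least 1.36-fold lower at both doses. With spike scaling the log2 ratio of SAM3 was -0.21 at 15 µM and 0.09 at 7.5 µM, and relative to the median of all genes it was -0.96 and -0.50. The call of SAM3 at 15 µM also ended when the values were left as deposited (-0.95) and when its probe sets were averaged (-0.80). With a 60th percentile floor it ended too. The 15 µM signal lay under that floor, so SAM3 was lower by at least 0.93 log2 units there. The probe sets of SAM3 disagreed in size at both doses and in direction at 7.5 µM. Among its s type probe sets, which can share probes with other genes, one gave a log2 ratio of -1.70 at 15 µM and -0.29 at 7.5 µM. Another was lower by at least 0.98 log2 units at 15 µM and had a log2 ratio of 0.49 at 7.5 µM. A further probe set was above the floor in solvent alone, lower by at least 0.25 log2 units at both doses. The last stayed under the floor on every array.

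Beyond methionine, the genes of S-adenosylmethionine synthetase, which makes the methyl donor of the cell from methionine and ATP, lay on opposite sides. SAM2 had scaled signals of 210.3, 407.1 and 407.2 on the control, 7.5 µM and 15 µM arrays, a log2 ratio of 0.95 at each dose. At 15 µM it passed the 2-fold line with the values as deposited (1.05), with quantile normalisation and with lowess centring (1.04), and at 7.5 µM it did so with the first and the last of these, at 1.03 in both. SAM1 had 594.9, 400.8 and 313.2 on the same arrays, with log2 ratios of -0.57 at 7.5 µM and -0.93 at 15 µM. The treated arrays were both above the control for SAM2 and both below it for SAM1. A probe set annotated to both genes had 1570, 1391 and 1478 on the same arrays, a log2 ratio of -0.09 at 15 µM. With spike scaling SAM1 was at -0.09 for 15 µM and at 0.11 for 7.5 µM, which is -0.83 and -0.47 relative to the median of all genes.

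**Figure D4:**
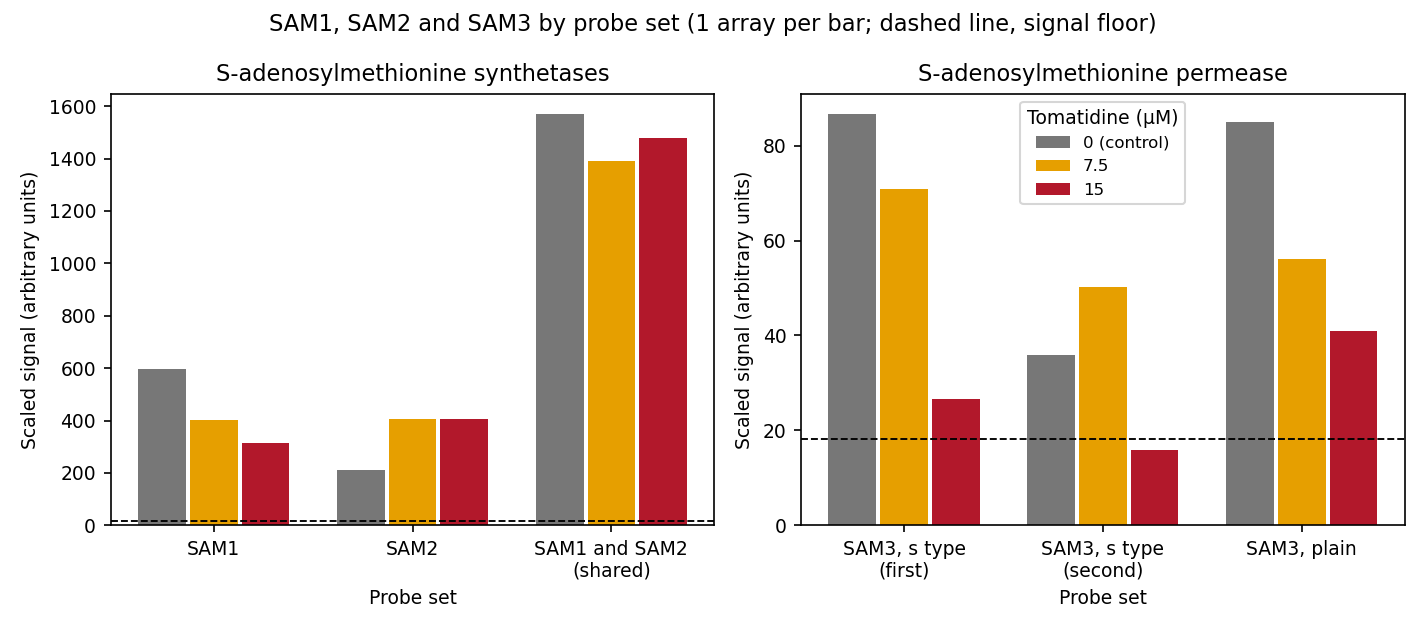
Scaled signal (vertical axes, arbitrary units) by probe set (horizontal axes) for SAM1, SAM2 and their shared probe set (left) and for 3 probe sets of SAM3 (right) at 0, 7.5 and 15 µM tomatidine, 1 array per bar, with the floor as a dashed line. SAM1 is dimmer and SAM2 brighter on both treated arrays, the shared probe set lies between 1391 and 1570, and all 3 probe sets of SAM3 are dimmest at 15 µM.

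Another list held genes that link homocysteine and cysteine or break cysteine down. In it STR2, a cystathionine gamma-synthase, had scaled signals of 22.4, 34.3 and 40.9 on the control, 7.5 µM and 15 µM arrays. Its log2 ratio was 0.87 at 15 µM and 0.62 at 7.5 µM. IRC7, a cysteine beta-lyase, had 86.1, 61.9 and 44.0 on the same arrays, with -0.97 at 15 µM, which was -1.01 and past the 2-fold line with quantile normalisation, and -0.48 at 7.5 µM. STR2 was thus brighter and IRC7 dimmer on both treated arrays than in solvent. CYS3 and CYS4, brighter genes of this list, had log2 ratios of -0.38 and 0.13 at 15 µM. At 7.5 µM they had -0.37 and 0.45. Of the glutathione genes, GSH2 was highest with 0.16 at 15 µM and 0.21 at 7.5 µM, GSH1 was lowest at 15 µM with -0.27, and ECM38 had 0.00 at 7.5 µM. In the methionine salvage list MRI1 was highest at 15 µM with 0.11 and UTR4 lowest with -0.30. At 7.5 µM ADI1 was highest with 0.34 and MEU1, which starts the salvage of methylthioadenosine, lowest with -0.66.

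The regulator genes come last. MET4 had log2 ratios of -0.11 at 15 µM and 0.01 at 7.5 µM, MET30 had 0.06 and -0.11, MET31 had 0.02 and -0.18, and CBF1 had -0.04 and -0.02 for the same doses. MET28 and MET32 were under the floor on every array. Of the genes for the use of sulfonates and sulfate esters, JLP1 and PDC6 were under the floor on every array and BDS1 was above it in solvent alone, at least 1.07-fold lower at each dose.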

How the data were processed

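Total RNA of 3 conditions was measured on 1 Affymetrix yeast array each, per the labels and the platform annotation. The deposited table holds 1 linear intensity per probe set; how the authors summarised, background-corrected and scaled it is not given in the sources used here, but after trimming 2% of probe sets at each end all arrays had a mean of 100.0, so the arrays had been set to equal overall brightness and no shift in total mRNA can be read from them. Of 9335 probe sets, 60 were controls, 6504 had 1 gene, 328 several and 2443 no entry. All 6504 identifiers matched the R64 gene table, used for symbols and neighbours only.

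Each array was scaled by its median non-control probe set to the geometric mean of the medians, floored at the 40th percentile and put on the log2 scale. For 315 genes with several probe sets the one with the highest mean floored log2 signal over the 3 arrays was used. Ratios with 1 array at the floor are lower bounds. Genes named outside the 10 were those at 2-fold in any comparison. Also named were the highest and lowest of each list at 15 µM and at 7.5 µM over control. OPT1, MET2, CBF1, CYS3, CYS4 and RSC1, and genes under the floor, were named after their values were seen. The members and lists were chosen with earlier results of these data known. A planned search of promoters for motifs was not run, and no sequences were used here. Alternatives changed the scaling, the floor, the summary of probe sets and the fold. Calculations ran in Python 3.11.15 with pandas 2.3.3, numpy 2.4.6 and statsmodels 0.14.6, and plots in matplotlib 3.10.9.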

Additional observations from a re-analysis of the deposited data

How the results depend on the processing

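The median log2 ratio of the compared sulfur genes kept its sign under every alternative run at 15 µM and 7.5 µM; it was 1.36 at both doses with spike scaling, and 0.35 at 15 µM with the floor at the 60th percentile, where 7 genes were compared. Between the doses it was 0.04 with spike scaling. At 15 µM the 1 sulfur gene called in the reported setting was MUP3, lower (183 of all 4724 compared genes called). The number was 3 with the values as deposited, MET3 and MET14 higher and MUP3 lower (201 of 4724). It was 2 with lowess centring (span 0.3), MET3 higher and MUP3 lower (188 of 4724). With spike scaling it was 7, all higher and without MUP3, where 1295 of 4830 genes were called, 1288 of them higher. It was 0 with the floor at the 60th percentile (112 of 3313) and 0 at a 3-fold line (49 of 4724). At a 1.5-fold line it was 5, of which 4 were higher and 1 lower (716 of 4724). At 7.5 µM (2 reported) it was 6 with spike scaling, 0 with the 60th percentile floor, 1 with no floor and a pseudocount at the 5th percentile, 0 at 3-fold and 6 at 1.5-fold, and between the doses (0 reported) it was 1 at 1.5-fold. Over all genes, 183, 122 and 47 were called at 15 µM, at 7.5 µM and between the doses. They became 1295, 801 and 72 with spike scaling, and 345, 284 and 172 under a 20th percentile floor, where 5457 genes were compared. They became 112, 66 and 17 under a 60th percentile floor, 49, 24 and 6 at 3-fold, and 716, 653 and 335 at 1.5-fold, and between the doses 95 with no floor. The split of higher and lower calls at 7.5 µM, 93 and 29, became 125 and 19 without the median scaling and 797 and 4 on the spikes. It was 157 and 127 under the 20th percentile floor and 115 and 64 with no floor. At 15 µM it was 129 and 54, against 1288 and 7 with spike scaling. It was 202 and 143 there under the 20th percentile floor and 150 and 87 with no floor. Between the doses it was 34 and 13, against 68 and 4 with spike scaling and 68 and 27 with no floor. The cause of these differences was not tested, beyond the wider or narrower rule itself. No called value of a single sulfur gene changed sign. Among the other sulfur genes, YCT1 passed the 2-fold line with the 20th percentile floor (-1.12 at 15 µM and -1.03 at 7.5 µM). With no floor it did so at 15 µM (-1.08). With spike scaling, which moved the median of all genes, SAM2 (1.79), STR2 (1.53), MET13 (1.29) and MET22 (1.09) passed it at 15 µM. At 7.5 µM SAM2 (1.64), STR2 (1.13), CYS4 (1.13), MET22 (1.10) and ADI1 (1.02) passed it on the spikes. The same scaling put IRC7 at -0.13 for 15 µM and at 0.21 for 7.5 µM. The remaining changes of SAM2, SAM3 and IRC7 stand beside their values. No paired analysis was possible because each condition had 1 array, and no array could be left out. MET3, MET16 and MUP3 lie near the floor, where signal limits the precision. With the 60th percentile floor the log2 ratio of MET10 at 15 µM, 0.02, was only a lower bound, its control signal lying under that floor.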
